A study of Mus musculus with 5 samples.

Results

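The 10 genes of this account act late in sperm formation and were followed through 3 eCLIP peak lists: Prm1, Prm2, Tnp1 and Tnp2 for sperm chromatin, Acrv1 and Spaca1 for the acrosome, Odf1, Odf2 and Akap4 for the flagellum, and Crem, a transcription factor of spermatids. Peaks were taken where the gene name in the authors' tables was 1 of these 10, which gave 27 of 14092 PABPC1 peaks, 0 of 10916 CCT3 peaks and 1 of 18650 CCT3-2 peaks. The groups were PABPC1 immunoprecipitation (1 sample) over PABPC1 input (1 sample), and CCT3 immunoprecipitation (2 samples, CCT3 and CCT3-2) over CCT3 input (1 sample). All came from GC-2spd(ts), 1 immortalised mouse germ cell line labelled as spermatocytes, with no genetic change or treatment labelled. CCT3-2 carries the library name of CCT3, so it is not shown to be a separate culture, and no input of its own is labelled. In eCLIP, RNA crosslinked to a protein is recovered with an antibody, trimmed and sequenced beside input RNA. Each peak has a log2 fold over input and a −log10 p, both computed by the authors. With 1 list for PABPC1 and lists of uncertain independence for CCT3, no value has a replicate check and none was tested.

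In spermatids, histones give way first to transition proteins and then to protamines, the small arginine-rich proteins that pack sperm DNA. Their mRNAs are made early, held back from translation as RNA-protein particles, and translated days later, when their poly(A) tails have become shorter. PABPC1 is the cytoplasmic protein that coats poly(A) tails. CCT3 is a subunit of the TRiC/CCT chaperonin, which folds actin and tubulin. Neither translation nor poly(A) tail length was measured here.

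All 10 genes were named by PABPC1 peaks, against 22.6% of 21900 protein-coding genes, and 10 of 10 also held a PABPC1 peak inside their RefSeq span, against 25.8%. With only peaks at a log2 fold of 4 or more and −log10 p of 5 or more, 5 of the 10 were named. Among these, Prm2 was named only for peaks lying in Prm1. By position, Prm1, Prm2, Tnp1, Tnp2, Odf1 and Spaca1 held such peaks. The share of all protein-coding genes at this threshold was not computed. None of the 10 was named by a CCT3 peak, where the share of all protein-coding genes was 9.34% (9.59% by span). One, Odf2, was named by a CCT3-2 peak, against 12.0% of all protein-coding genes (12.3% by span). The genes were chosen with results of these lists known, so the PABPC1 count is a description. The highest folds lay in Prm1 and Tnp2, a protamine and a transition protein gene. Peaks sat at the very 3′ end of 6 genes and at an annotated start of 5. The deposited names and classes hide part of this, since a peak is often named for a neighbouring gene whose start is close.

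Sequence is shown for 5 peak blocks at annotated starts, as examples of places where a poly(A)-binding protein had peaks away from the 3′ end. The Prm1 and Tnp1 runs show their blocks whole. The Odf2 and Akap4 runs show the first 30 bases of blocks of 69, 72 and 48 bases. The peaks near the starts of Spaca1 and Odf1 are not shown. Each run is 30 bases long, 5′ to 3′ on the gene's strand, from the RefSeq start windows of build GRCm38.p6, and capitals mark the bases of the peak or of directly joined peaks. The runs lie at chr16:10796788-10796817 (minus strand), chr1:73015860-73015889 (minus strand), chr2:29889801-29889830, chr2:29890060-29890089 and chrX:7068213-7068242 (plus strand), in the order given.
Prm1: cacaaaaTTCCACCTGCTCACAGgttggct
Tnp1: agcccctcattTCGGCAGAaagtaccatgt
Odf2, first block: GGGGAGGAGCCGCCGCGGGAGCCGGACTGC
Odf2, second block: CGTTGGGCGCGGGCCCTTCCTCCTCCCGCT
Akap4: AGTCTGGTCTAACAGCTGACCGGGGTGGCA
None of the capital letters shown holds a run of AAAA. The longest run of A in the 5 sequences was 4, 3, 1, 0 and 2, and their GC content was 50.0%, 50.0%, 83.3%, 76.7% and 60.0%. The Prm1 run of 4 A lay beside the peaks, and the last 6 lower-case bases of that sequence belong to the third peak. Among the first 51 transcribed bases, AAAA (sense strand only) was present in 1 of 13 start windows of these genes and in 11.5% of 32851 windows of all genes. Start windows were at hand for 8 of the 10 genes.

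Prm1 encodes protamine 1 (gene ID 19118, chromosome 16, 10796332 to 10796823 in mm10, minus strand, 492 bases). Its span held 6 PABPC1 peaks, with log2 folds of 8.43, 8.00 and 6.53 at the 3′ end and 5.03, 6.05 and 6.04 near the start. The first of these, 4 bases wide, ended at the last annotated base of the gene and ranked 62 of 14092 peaks by fold. The 3 peaks of the 3′ end touched each other and together reached 37 bases upstream of the last base. The 3 near the start covered positions 13 to 66 after the first base, with 1 uncovered base among them. No peak lay in the middle of the gene. All 6 had the highest −log10 p in the list, 400, at which the deposited values stop. The table named the 3 peaks of the 3′ end for Prm2, whose listed transcript begins downstream of them, and the 3 near the start for Prm1.

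Prm2 encodes protamine 2 (gene ID 19119, chromosome 16, 10791377 to 10792105, minus strand). By name it had 3 PABPC1 peaks, but 0 of these lay in its RefSeq span. Its span held 2 others, with log2 folds of 5.06 and 3.49 and −log10 p of 400, which the table named for Prm3. They ended 11 and 20 bases before the last base of Prm2, and lay past the end of the Prm2 transcript that the tables list. So by position the highest Prm2 fold was 5.06, whereas by name it was 8.43. Prm3, a related gene of the cluster, held no peak in its own span.

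Tnp2 encodes transition protein 2 (gene ID 21959, chromosome 16, 10787935 to 10788655, minus strand). All of its 7 PABPC1 peaks were named for it and lay inside it, with log2 folds of 3.87, 4.10, 5.44, 5.54, 4.87, 3.19 and 3.06 in order from the 3′ end. The first 6 lay 46 to 158 bases before the last base, in 2 blocks, and the seventh 330 bases before it. Unlike Prm1 and Tnp1, it had no peak near its start. The 2 peaks of the highest fold were 5 bases wide each.

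Tnp1 encodes transition protein 1 (gene ID 21958, chromosome 1, 73015074 to 73015899, minus strand). A single peak was named for it, 8 bases wide and 21 bases after the first base, at a log2 fold of 3.12 (−log10 p 28.2). Of all PABPC1 peaks, 95.9% had a larger fold. By position it held 4 more, with log2 folds of 5.01, 4.02, 3.66 and 3.76, all at a −log10 p of 400 and all 13 to 112 bases before the 3′ end. The table named these 4 for 1700027A15Rik, a noncoding RNA gene whose listed transcript runs on the other strand, while the peaks lie on the strand of Tnp1. By name the highest fold of Tnp1 was thus the lowest among the 10 genes, and by position it was the fifth from the top.

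**Figure D1:**
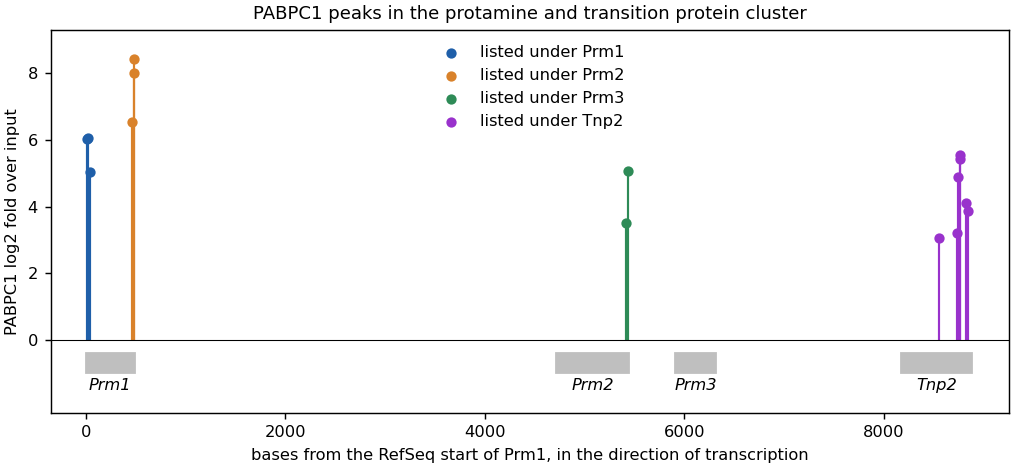
PABPC1 peaks in the stretch of 8.89 kb on chromosome 16 that holds Prm1, Prm2, Prm3 and Tnp2. The x axis gives bases from the RefSeq start of Prm1 along the direction of transcription, the y axis the log2 fold over input, each pin 1 of 15 peaks coloured by the gene named in the table, and grey boxes the RefSeq spans. Peaks named for Prm2 stand at the 3′ end of Prm1, and peaks named for Prm3 at the 3′ end of Prm2.

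These 15 peaks were the only PABPC1 peaks of the cluster, and all lay in Prm1, Prm2 or Tnp2. The CCT3 and CCT3-2 lists had 0 peaks there, the nearest being named for Rmi2, 68.1 kb from Prm1 in both lists.

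The outer dense fibres and the fibrous sheath are the stiff structures around the sperm axoneme. Odf1, an outer dense fibre gene (gene ID 18285, chromosome 15, 38219203 to 38226735, plus strand), had 3 PABPC1 peaks with log2 folds of 5.30, 4.63 and 3.38. The first 2 were joined and lay 132 to 227 bases after the first base of the gene, and the third ended 7 bases before its last base. The highest fold was thus near the start and the lowest at the 3′ end, the reverse of Prm1. Odf2, a gene of outer dense fibres and of centrosomes (gene ID 18286, chromosome 2, 29889014 to 29931746, plus strand), held 7 PABPC1 peaks with log2 folds between 3.04 and 4.77. Of these, 4 were of the promoter class, and the first 3 of these began within 50 bases of a RefSeq start. The first block began 16 bases before one RefSeq start and the second 3 bases before another, both starts lying inside the span. A peak at a log2 fold of 3.79 had its midpoint 10 bases before the 3′ end of a listed Odf2 transcript, inside the longer RefSeq span. The remaining 2, with 4.77 and 4.15, lay 589 and 16 bases before the end of the span. Both were named for Gle1, the next gene. Their −log10 p was 4.16 and 3.56, where the lowest of the list was 3.01. Only the peak at 3.56 lay within 100 bases of the RefSeq 3′ end. Odf2 thus had peaks at starts and at 2 separate annotated ends. Akap4, the main anchoring protein of the fibrous sheath (gene ID 11643, chromosome X, 7067515 to 7078609, plus strand), had 1 peak with a log2 fold of 3.88. That peak began 3 bases after a RefSeq start inside the span, and 698 bases after the first base of the span. Akap4 had none at its 3′ end.

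The acrosome is the secretory cap that the sperm uses to enter the egg coat. Spaca1, a membrane protein of the acrosome (gene ID 67652, chromosome 4, 34024872 to 34050067, minus strand), had 2 PABPC1 peaks. One had a log2 fold of 3.55 and began 45 bases after the first base of the gene. The other had 4.42, was of the 3′ UTR class and lay 3476 bases before the end of the gene span. Acrv1, which encodes a protein of the acrosomal matrix (gene ID 11451, chromosome 9, 36693220 to 36698845, plus strand), had 1 peak, in the 3′ UTR, with a log2 fold of 3.69 and 179 bases before the gene's end. The peak lay past the end of the Acrv1 transcript listed beside it, but inside the longer RefSeq span. Crem (gene ID 12916, chromosome 18, 3266354 to 3337773, minus strand), which activates the protamine and transition protein genes in spermatids, had 1 peak at a log2 fold of 3.40 (−log10 p 3.30), in the 3′ UTR 1042 bases before the end of the span and past the end of the transcript listed for it. These acrosome genes and Crem had 1 or 2 peaks each, none with a −log10 p above 15.4.

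**Figure D2:**
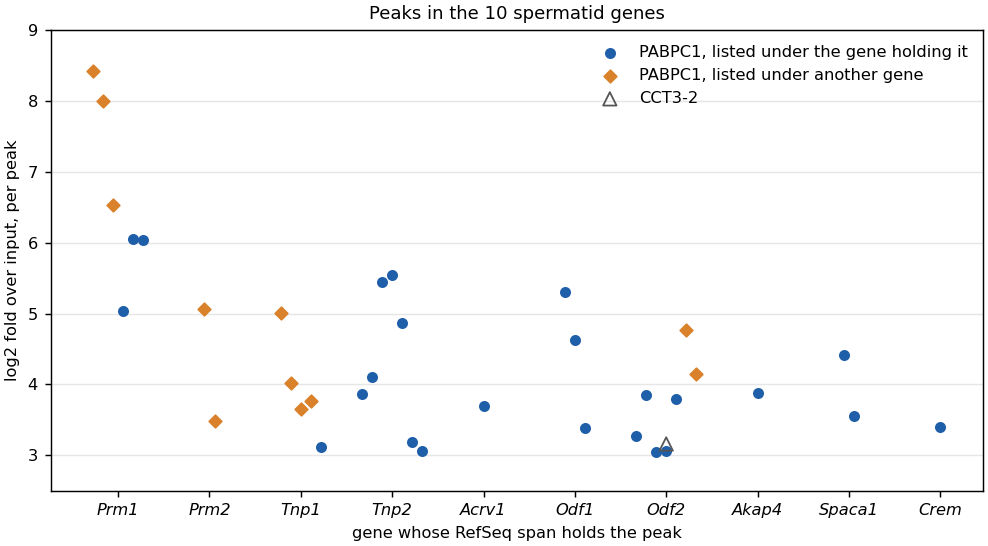
Log2 fold over input (y axis) of every peak inside the RefSeq span of the 10 genes (x axis), with the peaks of a gene in order of genome position. Blue circles are PABPC1 peaks named for the gene that holds them, orange diamonds those named for another gene, and the open triangle the CCT3-2 peak of Odf2. Prm1 reaches 8.43, and the 3 highest diamonds over it were named for Prm2.

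The 10 genes fell into short and long ones. The 4 genes with a span of at most 1000 bases (Prm1, Prm2, Tnp1 and Tnp2) held 20 peaks with log2 folds of 3.06 to 8.43 (median 4.94), of which 17 had the highest −log10 p. The other 6 held 15 peaks with log2 folds of 3.04 to 5.30 (median 3.79), of which 1 did. Without the 6 peaks of Prm1 the short genes had 14 peaks with a median of 3.95, 11 of them at the highest −log10 p, so most of the difference in fold rested on Prm1. Per gene, the median log2 fold was 4.28 in Prm2, 3.76 in Tnp1 and 4.10 in Tnp2, against 4.63 in Odf1, 3.98 in Spaca1 and 3.79 in Odf2, with single peaks of 3.40 to 3.88 in Crem, Acrv1 and Akap4. The ranges overlap, and peaks of a gene are not independent of each other. Peaks were narrower in the short genes, with a median of 11.0 bases (4 to 37) against 46.0 bases (13 to 109) in the long ones. Over the whole PABPC1 list the median width was 50.0 bases, and 34.0 bases among the 677 peaks with the highest −log10 p. In the spans of the 10 genes 18 of 35 peaks had that value (51.4%, Wilson 95% interval 35.6 to 67.0%), against 4.80% of the list. Directly beside another peak lay 19 of 35 (54.3%, 38.2 to 69.5%), against 24.1% of the list. Over these 35 peaks the median log2 fold was 4.02, against 4.19 over the list.

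By the deposited class, 22 of the 27 named PABPC1 peaks were in the promoter class (81.5%, 63.3 to 91.8%) and 5 in 3′ UTRs (18.5%, 8.18 to 36.7%), with 0 in other exons, introns or 5′ UTRs. The whole list had 13.2% in the promoter class and 79.9% in 3′ UTRs. This class takes any peak up to 1000 bases from the listed start, on either side, which covers the whole of a short gene. In other genes with a span of at most 1000 bases, 107 of 107 peaks were in the promoter class, against 13.8% of 9522 peaks in longer genes. All 20 peaks of the 4 short genes were so classed, although 15 lay within 200 bases of the gene's 3′ end. In the 6 longer genes 8 peaks were in the promoter class and 7 in 3′ UTRs.

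Distance to the 3′ end depended on which end was used. To the end of the transcript listed beside each peak, the 27 named peaks had a median distance of 800 bases (order-statistic 95% interval 140 to 4821), with 12 (44.4%, 27.6 to 62.7%) within 500 bases, against 25.9% of the list. Among these 12 were all 7 peaks named for Tnp2 and all 3 named for Prm1, on listed transcripts of only 725 and 561 bases. The 3 named for Prm1 lay near its start. The listed transcript is often not the one that holds the peak, as for the 3 peaks named for Prm2. Measured for the 35 peaks inside a span to the RefSeq 3′ end of that gene, the median was 228 bases, with 22 (62.9%, 46.3 to 76.8%) within 500 bases and 12 (34.3%, 20.8 to 50.8%) within 100 bases. Among the 9653 PABPC1 peaks of the list that lie in the gene they are named for, 44.2% were within 500 and 15.6% within 100 bases. These sets are unlike, since only 24 of the 35 were named for the gene that holds them. The others include the 3′ end peaks of Prm1, Prm2 and Tnp1. Gene length also enters these shares. A window of 500 bases covers all of Prm1 (492 bases) and most of Prm2, Tnp1 and Tnp2 (729, 826 and 721 bases). The Prm1 peaks near its start are thus counted as well. Within 100 bases lay 10 of 20 peaks in these 4 short genes, but only 2 of 15 in the 6 longer genes. To the listed transcript's end, 11.1% of the 27 named peaks lay within 100 bases, against 9.44% of the list. Per gene, a peak midpoint within 100 bases of the RefSeq 3′ end was found in 6 of the 10 (Prm1, Prm2, Tnp1, Tnp2, Odf1 and Odf2), against 10.2% of 18807 protein-coding genes of known strand. That share also counts genes without any PABPC1 peak, whereas all 10 held one. Of 21900 protein-coding genes 5645 held a peak in their span, and 1919 of the 18807 had one at the 3′ end. Distances run along the genome, introns included.

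Peaks at annotated starts were found in part of the genes, and not in Prm2, Tnp2 or Acrv1. Among the 8 genes with RefSeq start windows, 5 (Prm1, Tnp1, Odf2, Akap4 and Spaca1) had a PABPC1 peak whose first base lay within 50 bases of an annotated start on the same strand, against 182 of 17492 protein-coding genes (1.04%). They held 9 such peaks, among 221 in the whole list (1.57% of its peaks). The share of 1.04% also counts genes without any PABPC1 peak. Prm1, Tnp1 and Odf2 had peaks at both ends, in Odf2 through a single 3′ end peak with a −log10 p of 3.56. The windows of 50 bases here and of 100 bases at the 3′ end were chosen after the positions had been seen. All 35 peaks lay on the strand of the gene that holds them. Over the list, 85.5% of PABPC1 peaks lay on the strand of the transcript listed for them, which is another measure. By that measure the 4 Tnp1 peaks named for 1700027A15Rik lay on the opposite strand.

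**Figure D3:**
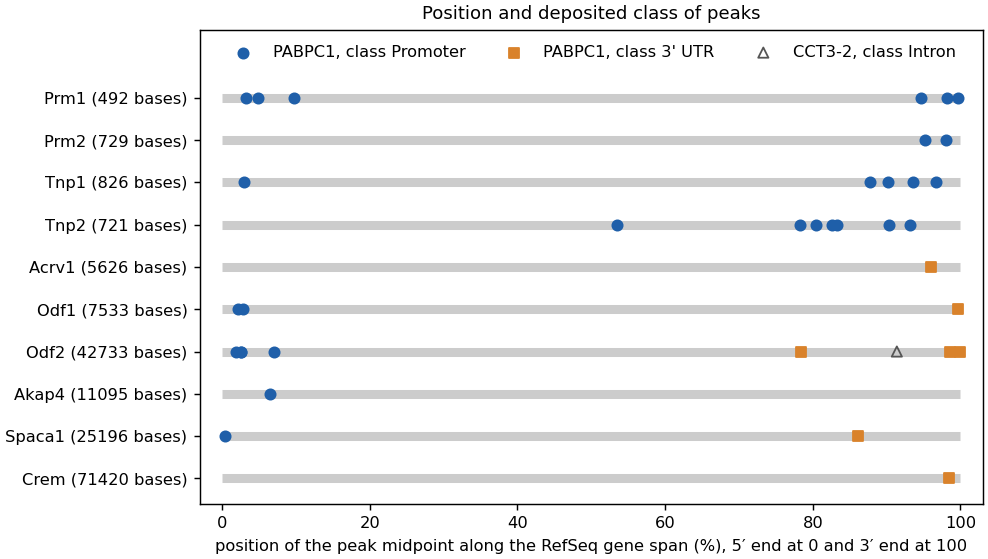
Position of peak midpoints along the RefSeq span of each gene, in percent from the 5′ end (0) to the 3′ end (100). Blue circles are PABPC1 peaks of the promoter class, orange squares PABPC1 peaks of the 3′ UTR class, and the open triangle the intronic CCT3-2 peak. In Prm2, Tnp1 and Prm1 promoter-class peaks stand at the 3′ end of the gene.

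The CCT3 lists gave a single peak in these genes. It was in the CCT3-2 list, of the intron class in Odf2 (29928005 to 29928125, plus strand), 121 bases wide, at a log2 fold of 3.16 (−log10 p 3.08). Of all CCT3-2 peaks, 83.4% had a larger fold. It lay 3621 bases before the end of the Odf2 span and overlapped none of the 7 PABPC1 peaks there. In the CCT3 list the nearest peak to any of the 10 genes lay 68.1 kb away (Prm1) and the farthest of these nearest peaks 975 kb (Tnp1). Depth per library is unknown, so a gene without a CCT3 peak is not shown to be unbound.

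Other genes of the same processes had PABPC1 peaks in uneven shares. The 4 lists held 110 genes, none of them among the 10, and of these 52 (47.3%, 38.2 to 56.5%) were named in the PABPC1 list, 8 (7.27%, 3.73 to 13.7%) in CCT3 and 9 (8.18%, 4.36 to 14.8%) in CCT3-2. The shares over all protein-coding genes were 22.6%, 9.34% and 12.0%, so the CCT3 and CCT3-2 shares lay below those over all genes, which were within their intervals. Those intervals are for counts by name. By position the counts were 69, 5 and 5 of 110, against 25.8%, 9.59% and 12.3% of all protein-coding genes, and no interval was computed for them. In the order spermatid chromatin, acrosome, flagellum and regulators of stored mRNAs, the PABPC1 list named 13 of 18, 10 of 24, 13 of 44 and 16 of 24 genes, and by position 13, 15, 21 and 20 held a peak. The flagellum list was nearest to the share over all protein-coding genes. The CCT3 list named 3, 1, 2 and 2 of them.

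Genes of each list are given by listed name unless said otherwise. Among chromatin genes, Hspa2, a testis chaperone, had 13 PABPC1 peaks up to 6.62 (log2), all in its 3′ UTR. Brdt, a bromodomain protein of the male germ line, reached 6.47, and Kdm3a, a histone demethylase that acts at Prm1 and Tnp1, reached 5.91. Fhl5, the CREM coactivator, was named for 6 peaks up to 5.74, none of them inside its span. In CCT3, Psme4 had 1 intronic peak at 4.94 and Ep400 had 6 exonic peaks up to 4.01 (14 peaks in CCT3-2), while the 2 peaks named for Hspa2 (3 in CCT3-2) lay outside it. Kdm3a had 1 CCT3-2 peak at 3.72.

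In the acrosome list the highest PABPC1 folds by listed name were those of Gopc, a Golgi protein needed for acrosome formation, at 6.52, Tmf1 at 6.10, Spink2, an acrosomal protease inhibitor, at 4.85 with 8 peaks, and Adam3 at 4.77. The 2 peaks named for Tmf1 and the 2 for Adam3 lay outside these genes. By position, with strand ignored, Gopc was followed by Zpbp at 6.08 and Spaca6 at 5.66, neither of them named by a PABPC1 peak. Then came Spink2 at 4.85 and Tmf1 at 4.48. Tmf1 was the acrosome gene named in CCT3, with 1 exonic peak at 3.62 (3.06 in CCT3-2). In the flagellum list, by listed name, Tssk2, a spermatid kinase, reached 5.32 with 1 peak, and Smcp, a stored mRNA for a sperm mitochondrial capsule protein, reached 4.93 with 3 peaks inside the gene. Rsph6a and Ldhc followed at 4.89 and 4.85 by name, but at 3.86 and 3.52 by position, where Spag16 at 4.69 and Meig1 at 4.61 stood next after Smcp. Iqcg was named for 12 CCT3 peaks up to 6.19 (14 in CCT3-2), none inside its span, and Tssk4 for 3 peaks up to 4.40 (4 in CCT3-2), all inside it.

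Among regulators of stored mRNAs the highest PABPC1 folds by listed name were 9.38 for Eif4g3, a cap-complex scaffold, 8.94 for Pabpc1 itself, 7.53 for Dazl, a germ cell RNA-binding protein with all 14 peaks in its 3′ UTR, and 7.01 for Tdrd7, a chromatoid body protein. In CCT3, Tdrd7 had 1 intronic peak at 4.84, and 3 peaks named for Tdrd6 up to 4.60 (4 in CCT3-2) lay outside it. Papolb had 1 CCT3-2 peak at 3.72, outside its span. By position Rnf17, with 4 peaks up to 7.94, stood above Dazl, and Elavl1, with 10 peaks up to 7.30, stood above Tdrd7. Rnf17, Elavl1 and the germ granule proteins Piwil1 and Ddx4 were named for 0 PABPC1 peaks, although the spans of Piwil1 and Ddx4 held 18 and 8. The genes given by position in the acrosome, flagellum and regulator lists were picked after their values were seen. Position ignored strand, so their peaks are not shown to belong to the RNA of the gene that spans them. How reads shared by near-identical copies were treated is not recorded, so values of genes with close copies, such as Pabpc1 and Hspa2, are uncertain.

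**Figure D4:**
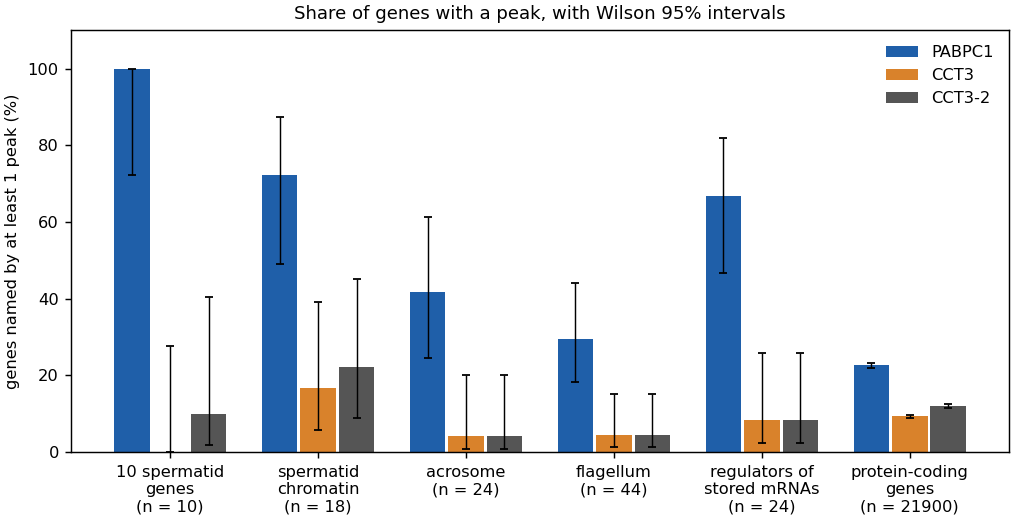
Share of genes named by at least 1 peak (y axis, percent) for the 10 spermatid genes, 4 lists of related genes and all protein-coding genes (x axis), with 1 bar per peak list and Wilson 95% intervals that cover counting error only. The PABPC1 bars run between 29.5% for the flagellum list and 100% for the 10 genes, which were chosen with these lists known, against 22.6% of all protein-coding genes.

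Markers of other cells were also found in the PABPC1 list. By name it held 9 of 10 spermatid markers, most of them among the 10 genes, 6 of 10 spermatocyte, 3 of 6 spermatogonium, 4 of 7 Sertoli cell, 5 of 6 Leydig cell and 6 of 8 fibroblast markers, against 22.6% of all protein-coding genes. The spermatid count rests mainly on genes chosen with these lists known, so it is a description only. By position the counts were 9, 9, 2, 5, 4 and 6, against 25.8%. The CCT3 list named 0, 0, 0, 1, 1 and 0 of these, against 9.34% of all protein-coding genes, and CCT3-2 the same numbers, against 12.0%. The CCT3 peaks named for the Leydig cell marker Cyp17a1 lay outside that gene, so by position the Leydig cell count was 0 in both CCT3 lists. Spermatid genes thus stood beside spermatocyte and somatic cell markers in PABPC1, and the part of any cell type in the difference between the proteins was not tested.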

How the data were processed

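The 3 peak tables were deposited by the authors, 1 per immunoprecipitation of PABPC1, CCT3 and CCT3-2. Per the submitters' processing notes, bcl2fastq 2.20 was among the tools and mm10 was the genome build. The aligner, peak caller, annotation tool and use of molecular identifiers go unnamed in the labels and headers read for these results. The deposited log2 fold values are the authors' own, taken as immunoprecipitation over input. The deposited −log10 p values are the authors' own and stop at 400. In the PABPC1 and CCT3-2 tables these columns are unnamed and were read from their ranges. All PABPC1 and CCT3 peaks had both values at 3 or more, while CCT3-2 went down to 2.37 (log2 fold) and 1.40 (−log10 p). Folds were used to describe peaks within a list.

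Peaks were taken by listed gene name, and also by overlap of at least 1 base with RefSeq gene spans (GRCm38.p6, the same build), since the gene named beside a peak held it for 68.5% of peaks in PABPC1, 82.1% in CCT3 and 82.3% in CCT3-2. Position counts ignore strand. Classes are those deposited. Shares have Wilson 95% intervals, which cover counting error only, and neighbouring peaks are not independent. Python 3.11.15, numpy 2.4.6, pandas 2.3.3, scipy 1.17.1 and matplotlib 3.10.9 were used. Tested on simulated data, 200 of 200 distances were recovered. The genes, gene lists and naming rule (all 10 genes, the 4 highest folds and every CCT3 gene per list) were chosen with earlier results of these data known. Sequence beyond the RefSeq start windows was not analysed here.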

Additional observations from a re-analysis of the deposited data

How the results depend on the processing

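Among 35 alternative values computed for 9 results, 22 lay inside the 95% interval of the share or median reported, or within 1.5 times the count reported. A wide interval lets large shifts count as inside. The median distance to the listed transcript's end, 800 bases (140 to 4821), became 3500 bases with peaks inside the RefSeq spans. It was also 3500 bases with peaks within 10 bases merged. Keeping peaks with both a log2 fold of 4 or more and a −log10 p of 5 or more left 13 PABPC1 peaks in 5 of the 10 genes (Prm1, Prm2, Tnp2, Odf1 and Spaca1, by name), 7.69% of them in 3′ UTRs. The wider lists then had 32 genes in PABPC1 and 5 in CCT3. Shares over all protein-coding genes at this threshold were not computed. By position 5 genes of the wider lists held a CCT3 peak. The CCT3-2 list, as deposited or with both values at 3 or more (chosen after seeing the data), named 1 of the 10 genes. Merging peaks within 10 bases left 17 of the 27 named peaks. Within 100 bases of the listed transcript's end lay 11.1% of peaks. With 2 settings chosen after seeing the data, 62.9% of peaks inside a span lay within 500 bases of the RefSeq end, and 62.9%, with a median of 101 bases, of the nearest listed end of that gene. That window of 500 bases covers all of Prm1 and most of Prm2, Tnp1 and Tnp2. Leaving out Prm1, also chosen after seeing the data, put the median log2 fold of the short genes at 3.95. Removing or joining peaks lowers counts by construction, and for the other settings the cause was not tested. No paired analysis was possible because each value describes a single peak list and none was tested. Read depth is unknown.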
